A study of Mus musculus with 15 samples.

Results

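Genes that mark the intestine, 10 in number, were followed through the development of the mouse stomach: the transcription factor genes Cdx1, Cdx2 and Pdx1, the enterocyte genes Vil1, Fabp1, Fabp2, Apoa1, Apoa4 and Apob, and the goblet cell mucin gene Muc2. The 10 genes were listed by name as markers of intestinal epithelium, out of 44788 gene symbols in the tables, by a rule that uses no measured value, although earlier results of these data were known when the list was made. RNA came from the whole stomach of C57BL/6 mice, with 1 RNA-seq library at each of 15 time points, and the labels give no number of animals per library. The study's sample notes describe pooled stomachs of several embryos per replicate at the early time points and single stomachs later, without saying whether this holds for the RNA. The time points run daily from E12.5 to E18.5 in the embryo (E, embryonic day), then over D1, D3 and D5 (D, day after birth) and over W1, W2, W3, W6 and W8 (W, week after birth). They were grouped into the RNA phases of the study: Ph1 with the 6 time points from E12.5 to E17.5, Ph2 with the 6 from E18.5 to W2, and Ph3 with W3, W6 and W8. No treatment or allele separates the groups. The study's notes state that stomachs up to W2 were taken without regard to sex and later ones from males. If this holds for the RNA, sex and age cannot be told apart between Ph2 and Ph3.

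The stomach and the intestine arise from neighbouring stretches of the gut endoderm, and the border between them is drawn at the pylorus. CDX2, a homeobox factor of the caudal type, is the classical switch of intestinal identity: its loss in the gut endoderm gives the intestine stomach features, and its forced expression in the stomach gives intestinal metaplasia, a change of cell type that in humans comes before some gastric cancers. PDX1 is made across the border, in the antrum of the stomach, the duodenum and the pancreas. The enterocyte genes encode parts of the absorptive machinery: villin bundles the actin of microvilli, the fatty acid binding proteins FABP1 and FABP2 carry fatty acids in the cytoplasm, and the apolipoproteins APOA1, APOA4 and APOB are the proteins of chylomicrons and other lipoproteins. APOA1, APOB and FABP1 are also abundant products of the liver. MUC2 is the main gel-forming mucin of intestinal goblet cells.

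The value used is the FPKM, a fragment count divided by transcript length and by sequencing depth, which can be compared between genes. Each value comes with confidence bounds on both sides that cover counting error only. Libraries held about 10600000 to 17000000 fragments, estimated from those bounds. Phases were compared with limma on log2(FPKM + 1) for the 16902 symbols that reached 1 FPKM in some library, and a gene was called changed at a Benjamini-Hochberg adjusted p under 0.01 over all of them. Of the 10 genes, 8 passed this filter, and Cdx1 and Muc2 did not. The time points of a phase stood in for replicates, so the error within a phase also holds the developmental change. The phases had been drawn from these same transcriptomes, so the p-values are not an independent test of them. The median gene moved by -0.22 on the log2 scale from Ph1 to Ph2 and by -0.43 from Ph2 to Ph3, and differences have to be read against these shifts.

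The labelled tissue was checked against marker genes. The summed FPKM of 17 stomach genes rose from 786 at E12.5 to 202400 at W6, and Sox2 and Barx1, genes of the early stomach, were present throughout Ph1. Some libraries held high levels of genes best known from other organs. Whether RNA of those organs was present was not tested. Albumin (Alb), a hepatocyte product, stood at 460.5 FPKM at D1 and 65.4 at W3, against 0.67 to 25.8 in the other 13 libraries. The sum over all 19 liver markers was 1622 FPKM at D1, 333 at W3 and 40.9 to 234.5 elsewhere. The pancreatic protease gene Ctrb1 stood at 84.5 FPKM at D3 and 39.3 at E15.5. At W8, the summed keratins and other markers of the squamous forestomach came to 16.9 FPKM, against 2349 at W3 and 1114 at W6. The study's methods name liver as the tissue of the RNA in one place, while the labels name stomach. In a whole organ, fewer cells of a type and less RNA per cell cannot be told apart.

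Across the phases the 8 tested genes took 3 kinds of course. Cdx2 was present in the early embryo and fell to almost nothing before birth. Pdx1 was present throughout, lower in Ph2 than in Ph1 and higher again in Ph3 than in Ph2. The 6 enterocyte genes all rose from Ph1 to Ph2, and the lowest and the highest library differed by 15.7-fold for Vil1, the least, and by 153-fold for Apoa1, the most abundant. From Ph1 to Ph2, all 6 enterocyte genes were called higher, against 13.2% of all tested symbols called higher, and Cdx2 and Pdx1 were called lower, against 35.1% called lower. From Ph2 to Ph3, Pdx1, Fabp2 and Apoa1 were called higher, against 3.41% of all symbols, and none of the 8 was called lower, against 37.4%. All 8 differed across the 3 phases in limma's F test, as did 70.8% of all tested symbols.

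**Figure D1:**
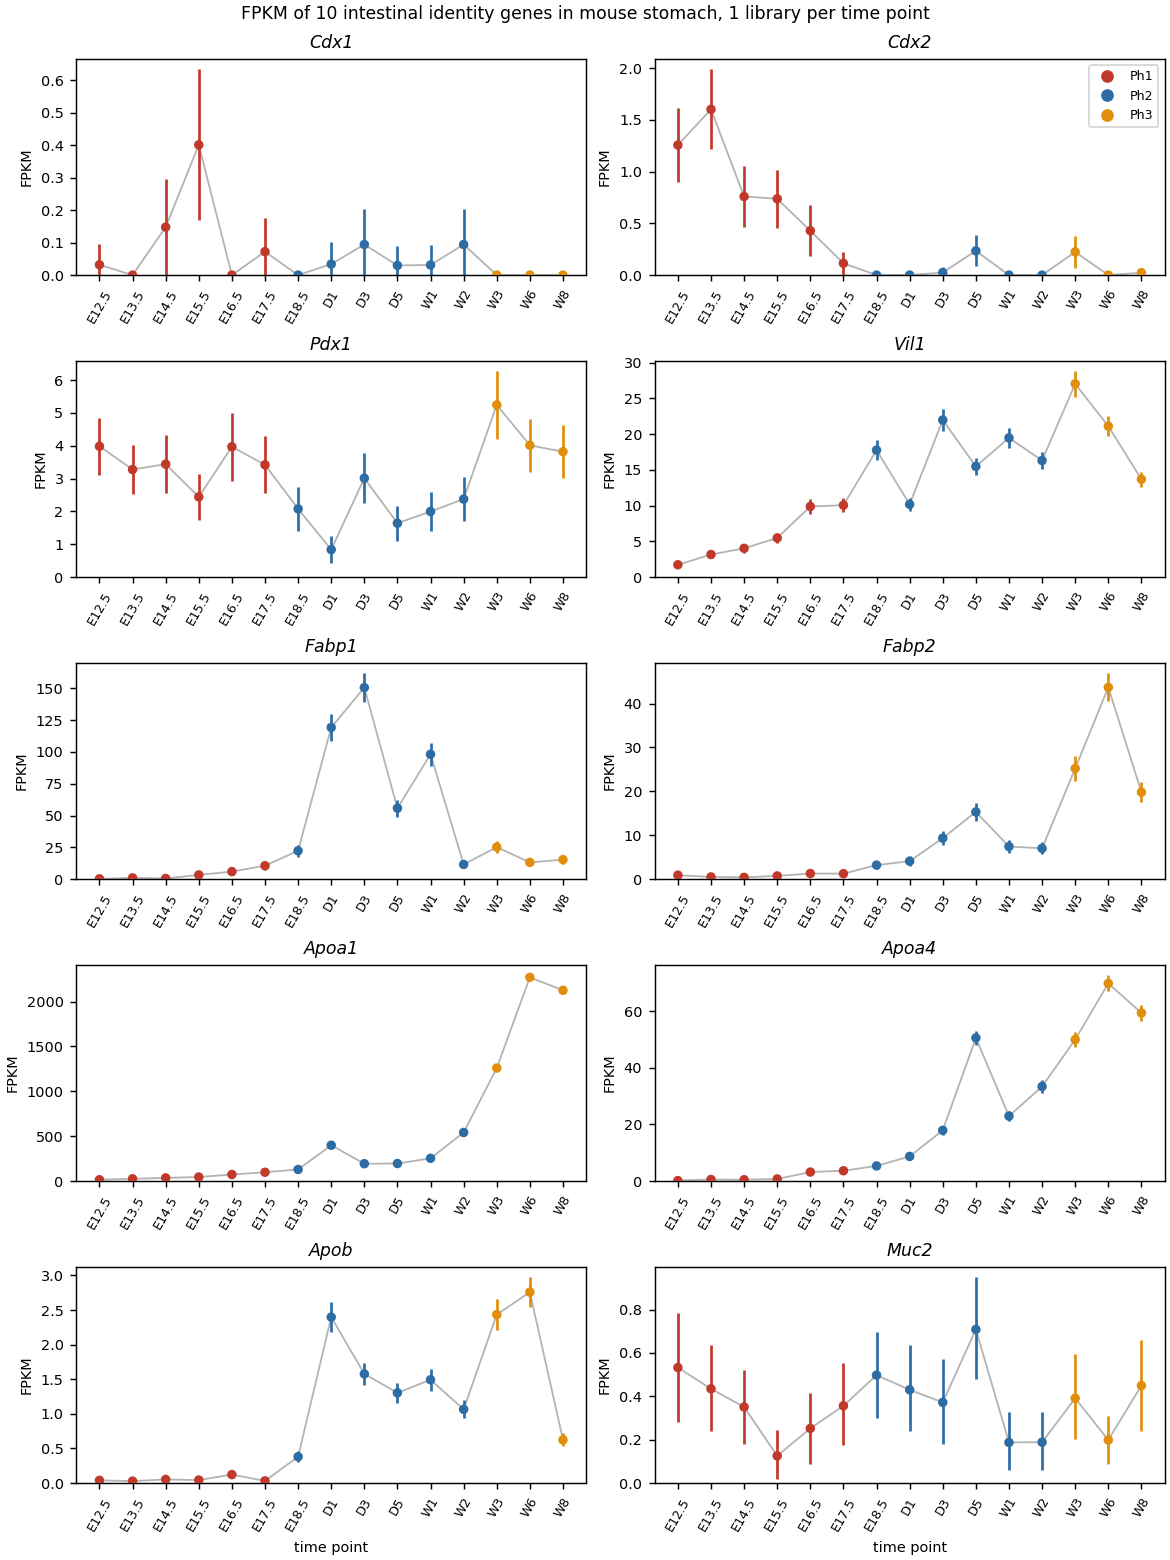
FPKM (vertical axis, linear, own scale for each gene) of the 10 genes in the 15 libraries (horizontal axis, time points), with points coloured by phase and bars from the lower to the upper bound in the tables. Cdx2 falls from 1.60 FPKM at E13.5 to 0 at E18.5, the 6 enterocyte genes rise, and Cdx1 and Muc2 stay under 1 FPKM in every library.

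Among the regulators, Cdx2 was highest in the early embryo, in libraries whose part of tissue beyond stomach was not tested. Its FPKM was 1.26 at E12.5, 1.60 at E13.5, 0.76 at E14.5, 0.74 at E15.5, 0.43 at E16.5 and 0.11 at E17.5. From E18.5 on it was listed at 0 in 5 of 9 libraries (E18.5, D1, W1, W2 and W6). The remaining 4 held 0.025 at D3, 0.235 at D5, 0.224 at W3 and 0.023 at W8. The groups overlapped only through D5, whose value lay above that of E17.5. The difference between Ph2 and Ph1 was -0.75 on the log2 scale (SE 0.17, limma adjusted p = 0.00155, exact permutation p = 0.00433, two-sided, 6 against 6 time points). The difference between Ph3 and Ph2 was 0.05 (95% confidence interval -0.39 to 0.49, limma adjusted p = 0.843). The values rest on few fragments: if the bounds are Poisson, 68.7 fragments stood behind the value at E13.5, 4 behind E17.5, 9.6 behind D5 and 8 behind W3.

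The Cdx2 gene (GRCm38 chr5:147300900-147307249, minus strand) lies 25750 bases from Pdx1 (chr5:147270131-147275149, plus strand), both in the ParaHox cluster, a group of homeobox genes of the gut and the nervous system. Their values are set side by side here. Gsx1, the neural member of the cluster, was listed at 0 in all 15 libraries. Pdx1 was above 0.8 FPKM in every library, including the 5 in which Cdx2 was listed at 0. Over the 15 time points, Pearson's r between Cdx2 and Pdx1 on the log2 scale was 0.31.

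Pdx1 ranged from 2.44 to 3.98 FPKM in Ph1, with a median of 3.43. In Ph2 it ranged from 0.84 at D1 to 3.01 at D3, with a median of 2.04. Its Ph3 values were 5.24 at W3, 4.01 at W6 and 3.82 at W8. D3, the highest library of Ph2, also held 84.5 FPKM of Ctrb1, and the part of pancreatic RNA in its Pdx1 value was not tested. Ph1 and Ph2 overlapped, since D3 lay above E15.5, and every Ph3 value lay above every Ph2 value. Of all tested symbols, 4.63% had every Ph3 value above every Ph2 value. Pdx1 was lower in Ph2 than in Ph1 by -0.59 on the log2 scale (SE 0.16, limma adjusted p = 0.00528, exact permutation p = 0.00433). It was higher in Ph3 than in Ph2 by 0.87 (SE 0.20, limma adjusted p = 0.00206, exact permutation p = 0.0238, the smallest that 6 against 3 time points allow). The fall is the least secure of the calls, since it was lost under 10 of 30 other settings, with an adjusted p of up to 0.0564 under median-ratio scaling. Among these were the fits without E12.5, E13.5, E14.5, E16.5 or D5. The rise was lost without W3 or with D5 and W3 left out (0.73, adjusted p = 0.0221). Ph3 was not tested against Ph1, and W8 lay below E12.5 and E16.5. The call was also lost when every library was scaled to the same FPKM of Cdh1, the gene of epithelial cadherin (0.64, adjusted p = 0.26).

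Cdx1, the close relative of Cdx2, was hardly detected. It was listed at 0 in 6 of 15 libraries (E13.5, E16.5, E18.5, W3, W6 and W8). Its highest value was 0.40 FPKM at E15.5, with bounds of 0.17 and 0.63 and about 11.9 fragments, and the next was 0.15 at E14.5, with 4 fragments. In Ph2 it ranged from 0 to 0.094 FPKM, which is at most 3 fragments. The phases overlapped, and the exact permutation test of Ph2 against Ph1 gave p = 0.472. Cdx1 was thus near the limit of detection at this depth, where 1 fragment was worth a median of 0.032 FPKM.

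Of the 6 enterocyte genes, Vil1 (chr1:74409384-74435560) is the one whose product bundles actin. It rose without a break from 1.72 FPKM at E12.5 to 17.8 at E18.5, and then ranged from 10.2 at D1 to 22.0 at D3 within Ph2. The late values were 27.0 at W3, 21.1 at W6 and 13.7 at W8. Every Ph2 value lay above every Ph1 value, as for 7.79% of all tested symbols, although D1 exceeded E17.5 only by 10.18 to 10.06. The difference was 1.55 (SE 0.32, limma adjusted p = 0.000844, exact permutation p = 0.00216, the smallest that 6 against 6 allow), and the call was lost with E18.5 placed in Ph1 (adjusted p = 0.0126). Between Ph3 and Ph2 the difference was 0.26 (95% confidence interval -0.57 to 1.08, adjusted p = 0.577).

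Both fatty acid binding protein genes rose around birth, and Fabp2 was called higher again in Ph3. The upstream sequences of these genes and of the neighbouring apolipoprotein genes Apoa1 and Apoa4 are shown here because these 4 had the largest differences between Ph2 and Ph1 among the members. Each runs from 250 bases before to 50 bases after the RefSeq start on GRCm38.p6, on the strand of the gene, and capitals mark a match on either strand to TTTATNG, a core of CDX binding sites, or to CAAAGTNCA, a core of sites of the nuclear receptor HNF4. Both motifs were chosen with the sequences in view.
Fabp1: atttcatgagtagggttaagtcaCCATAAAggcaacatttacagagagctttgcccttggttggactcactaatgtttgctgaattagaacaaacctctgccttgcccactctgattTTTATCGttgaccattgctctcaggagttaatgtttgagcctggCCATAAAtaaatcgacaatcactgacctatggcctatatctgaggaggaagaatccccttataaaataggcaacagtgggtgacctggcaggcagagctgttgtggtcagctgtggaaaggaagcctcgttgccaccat
Fabp2: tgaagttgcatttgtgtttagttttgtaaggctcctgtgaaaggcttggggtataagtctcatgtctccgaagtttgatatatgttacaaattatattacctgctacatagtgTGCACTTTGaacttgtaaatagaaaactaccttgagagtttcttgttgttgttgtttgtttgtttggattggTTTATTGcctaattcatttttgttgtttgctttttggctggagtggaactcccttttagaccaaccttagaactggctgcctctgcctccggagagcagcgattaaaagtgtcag
Apoa1: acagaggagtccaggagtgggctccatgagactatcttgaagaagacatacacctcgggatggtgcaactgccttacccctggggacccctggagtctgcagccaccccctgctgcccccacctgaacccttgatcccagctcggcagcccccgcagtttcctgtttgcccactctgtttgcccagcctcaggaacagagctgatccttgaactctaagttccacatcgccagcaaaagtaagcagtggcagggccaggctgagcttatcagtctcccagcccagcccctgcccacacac
Apoa4: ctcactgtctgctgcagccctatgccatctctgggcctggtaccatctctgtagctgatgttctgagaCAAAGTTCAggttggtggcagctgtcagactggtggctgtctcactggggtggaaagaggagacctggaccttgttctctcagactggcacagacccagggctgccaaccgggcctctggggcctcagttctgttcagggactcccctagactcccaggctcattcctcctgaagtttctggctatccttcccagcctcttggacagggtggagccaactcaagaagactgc

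The windows printed are chr6:71199629-71199928 for Fabp1, chr3:122894822-122895121 for Fabp2, chr9:46228380-46228679 for Apoa1 and chr9:46240594-46240893 for Apoa4, all on the plus strand. The Fabp1 window held 3 matches to TTTATNG, beginning at positions -227, -133 and -89 counted from the start, of which that at -133 lay on the strand of the gene. The Fabp2 window held 1, at -65, and 1 match to CAAAGTNCA on the opposite strand at -137. Apoa4 held 1 match to CAAAGTNCA, at -182, and Apoa1 held neither. Of 32851 mouse promoter windows of this length, 10.9% held a match to TTTATNG and 1.41% a match to CAAAGTNCA. In the other windows read, Apob held 1 match to TTTATNG, which overlaps a TATAAA, a motif found in 13.6% of windows, and Cdx2, Pdx1, Vil1 and Muc2 held neither of the first 2 motifs. A match describes the letters only, and no binding was measured in these libraries.

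Fabp1 (chr6:71199888-71205023), the liver form of the fatty acid binding proteins, which the proximal intestine also makes, was highest between D1 and W1. It ranged from 0.21 to 10.5 FPKM in Ph1, with a median of 2.09, and every step after E14.5 was a rise. In Ph2 it stood at 22.3 at E18.5, 119 at D1, 151 at D3, 55.7 at D5, 98.2 at W1 and 11.5 at W2. The 3 late libraries held 25.2 at W3, 13.1 at W6 and 15.3 at W8. The groups Ph1 and Ph2 did not overlap, though W2 lay near E17.5. The 3 late libraries lay within the range of Ph2.

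The difference of Fabp1 between Ph2 and Ph1 was 4.10 (SE 0.66, limma adjusted p = 0.000195), the largest among the 8 genes, and it kept its call under all 30 other settings. Ph3 was lower than Ph2 by 1.62 in the mean, but the 95% confidence interval ran from -3.35 to 0.12 (limma adjusted p = 0.0987). Liver markers stood beside this course as follows. At D1 the Alb value was 31.5 times that of E18.5, and Fabp1 was 5.36 times higher. At D3, where Fabp1 was highest, Alb stood at 25.8 FPKM and the sum of the 19 liver markers at 234.5, below D1 and W3 and above the other 12 libraries. At D5, Fabp1 stood at 55.7, Alb at 3.08 and the liver sum at 98.4. The part of liver RNA in the Fabp1 values was not tested. With D1 and W3 left out, the difference between Ph2 and Ph1 was 3.88 (adjusted p = 0.000818).

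Fabp2 (chr3:122895072-122899506), the intestinal form, rose later and was highest in Ph3, with falls after D5 and after W6. It stayed between 0.39 and 1.26 FPKM in Ph1. In Ph2 it stood at 3.18 at E18.5, 4.08 at D1, 9.34 at D3, 15.3 at D5, 7.42 at W1 and 7.005 at W2. In Ph3 it stood at 25.2 at W3, 43.7 at W6 and 19.8 at W8. Neither neighbouring pair of phases overlapped. The difference was 2.13 from Ph1 to Ph2 (SE 0.29, limma adjusted p = 8.49e-05) and 1.88 from Ph2 to Ph3 (SE 0.35, adjusted p = 0.000695). The second call was lost with scaling to Cdh1 (1.61, adjusted p = 0.0321). In Ph1 Fabp2 stood below Fabp1 at E17.5 by 1.23 to 10.5 FPKM, and at W6 above it by 43.7 to 13.1 FPKM.

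The apolipoprotein genes reached the highest level of the set. Apoa1 (chr9:46228630-46230469), which encodes the main protein of high density lipoprotein, rose in the embryo from 14.9 FPKM at E12.5 through 25.4, 35.3, 45.02 and 73.0 to 98.1 at E17.5. In Ph2 it stood at 129 at E18.5, 399 at D1, 193 at D3, 195 at D5, 254 at W1 and 541 at W2. From W3 on it stood at 1259 at W3, 2270 at W6 and 2125 at W8. Its maximum lay at the 99.4th percentile of the maxima of all tested symbols. No phase overlapped the next. The difference was 2.62 from Ph1 to Ph2 (SE 0.43, limma adjusted p = 0.000213) and 2.84 from Ph2 to Ph3 (SE 0.52, adjusted p = 0.000606), and both calls held under all 30 other settings.

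Alb and Apoa1 moved together at D1, where Apoa1 was 2.06 times its value at D3 and Alb 17.8 times. At W6 and W8, where Apoa1 was highest, Alb stood at 0.87 and 0.67 FPKM, Fga was listed at 0, and the sum of all 19 liver markers was 154.4 and 120.9, of which Ttr, the transthyretin gene, made 124.9 and 96.3. That sum lay above the 40.9 to 79.3 of Ph1 and within the 98.4 to 1622 of Ph2. The part of liver RNA in the Apoa1 values was not tested. Without D1 and W3, Apoa1 still differed between Ph2 and Ph1 by 2.49 (adjusted p = 0.000814) and between Ph3 and Ph2 by 3.24 (adjusted p = 0.00142).

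Apoa4 (chr9:46240844-46243458), a chylomicron protein that the small intestine secretes on feeding with fat, lies 10374 bases from Apoa1, with Apoc3 between them. It ranged from 0.17 FPKM at E12.5 to 3.64 at E17.5. In Ph2 it stood at 5.34 at E18.5, 8.70 at D1, 17.9 at D3, 50.5 at D5, 22.9 at W1 and 33.4 at W2. The Ph3 libraries gave 49.9 at W3, 69.8 at W6 and 59.3 at W8. Ph2 lay wholly above Ph1, and Ph2 and Ph3 overlapped because of D5, which exceeded W3 by 50.5 to 49.9. The difference was 3.18 from Ph1 to Ph2 (SE 0.48, limma adjusted p = 0.000135). From Ph2 to Ph3 it was 1.65 (SE 0.59, adjusted p = 0.0261) and missed the threshold, which it passed without D5 or under median-ratio scaling (2.25, adjusted p = 0.00816).

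The other genes of this apolipoprotein cluster stayed low. Apoc3, which encodes an inhibitor of lipoprotein lipase, was listed at 0 in 6 libraries and reached only 5.21 FPKM at D5 and 7.25 at W3, with at most 1.42 elsewhere. Apoa5 reached 2.55 FPKM at D1 and at most 0.49 elsewhere. Neither was called in either comparison (limma adjusted p = 0.211 and 0.104 for Apoc3, with 95% confidence intervals of -0.28 to 1.505 and -0.09 to 2.09, and 0.268 and 0.739 for Apoa5). Beside the cluster, Bud13 was lower in both steps (-0.89, adjusted p = 0.000136, and -0.65, adjusted p = 0.00413) and Sik3 in Ph3 (-0.58, adjusted p = 0.00356). At W6 the 4 genes of the cluster stood at 2270 FPKM (Apoa1), 69.8 (Apoa4), 0.93 (Apoc3) and 0.024 (Apoa5).

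Apob (chr12:7977633-8016839), the gene of the protein around which chylomicrons and very low density lipoproteins are built, was the lowest of the enterocyte genes. It lay between 0.028 and 0.123 FPKM in Ph1. In Ph2 it stood at 0.38 at E18.5, 2.40 at D1, 1.58 at D3, 1.304 at D5, 1.49 at W1 and 1.07 at W2. In Ph3 it stood at 2.43 at W3, 2.76 at W6 and 0.62 at W8. Ph2 lay wholly above Ph1, by 1.12 in the mean on the log2 scale (SE 0.21, limma adjusted p = 0.000495), a difference that the added 1 makes smaller for a gene this low. Ph3 overlapped Ph2, and the difference was 0.27 (95% confidence interval -0.28 to 0.82, adjusted p = 0.381). Apob was 6.30 times higher at D1 than at E18.5. Without D1 and W3, the difference between Ph2 and Ph1 was 1.01 (adjusted p = 0.00132).

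**Figure D2:**
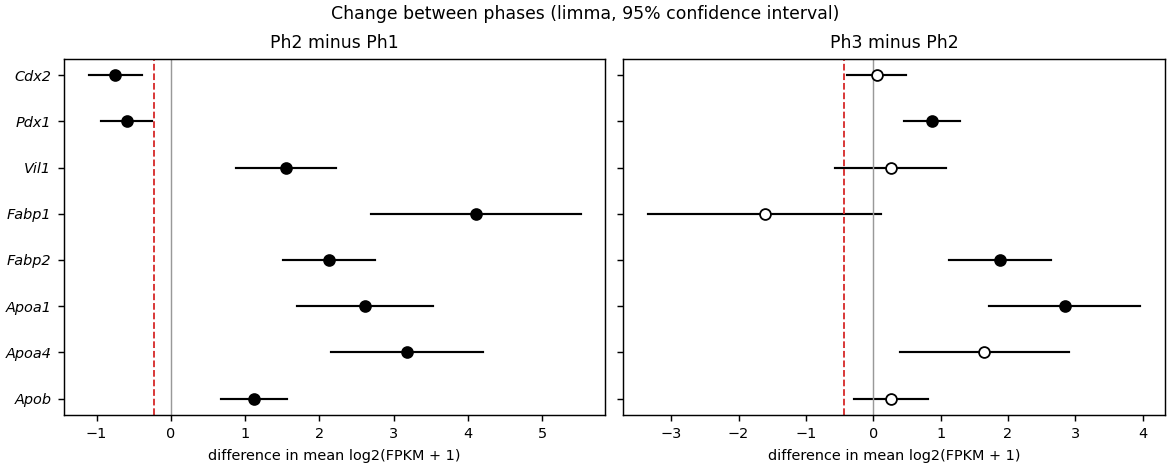
Difference in mean log2(FPKM + 1) between phases (horizontal axes) for the 8 tested genes, with limma's 95% confidence interval as bars, filled circles for an adjusted p under 0.01 and a dashed red line at the median of all 16902 tested symbols. From Ph1 to Ph2 the 6 enterocyte genes lie between 1.12 and 4.10 and Cdx2 and Pdx1 below 0, and from Ph2 to Ph3 only Pdx1, Fabp2 and Apoa1 are filled.

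Muc2 (chr7), the only goblet cell gene of the 10, showed no change between phases that could be detected. It ranged from 0.13 to 0.53 FPKM in Ph1, from 0.19 to 0.71 in Ph2 and from 0.20 to 0.45 in Ph3, and all 3 ranges overlapped. The exact permutation p was 0.626 for Ph2 against Ph1 and 0.762 for Ph3 against Ph2. Its highest value was that of D5. The tables split the gene into 2 entries, chr7:141690340-141704329 and chr7:141744612-141754694, which the GENCODE annotation joins into 1 gene, and the values here are their sum. The second entry alone, at the end of the gene, gave 0.70 of the 0.71 FPKM at D5.

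Because Apoa1, Fabp1 and Apob are liver genes as well, the members were set beside hepatocyte genes and beside other enterocyte genes in every library. Fgb, the fibrinogen beta chain gene, stood at 57.4 FPKM at D1, 3.77 at W3 and at most 1.85 elsewhere. D1 was thus the library with the highest hepatocyte markers. Apoa1 and Apob were the 2 of the 8 tested members that stood above both of their neighbours in time there, as did 28.6% of all tested symbols. D5 and W3 shared another trait, although W3 was also second to D1 in Alb, at 65.4 FPKM, and in the liver sum, at 333. In these 2 libraries alone after E17.5, Cdx2 exceeded 0.1 FPKM, and in them Apoc3, a gene of enterocytes and hepatocytes, was highest. At D5, Alpi, the intestinal alkaline phosphatase gene, reached 9.88 FPKM, against at most 3.08 in the other libraries. Of the 8 tested members, Cdx2, Fabp2 and Apoa4 stood above both of their neighbours in time at D5. These 3 of 8 stand against 44.7% of all tested symbols, so this alone does not set the members apart. At W3, 4 of the 8 stood above both neighbours, against 19.5% of all, and at W6 also 4, against 6.99%. Whether D5 or W3 held tissue beyond stomach was not tested. With D5 and W3 left out, Apoa4 and Fabp2 still differed between Ph2 and Ph1 by 2.89 (adjusted p = 0.000498) and 1.93 (adjusted p = 0.000305).

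**Figure D3:**
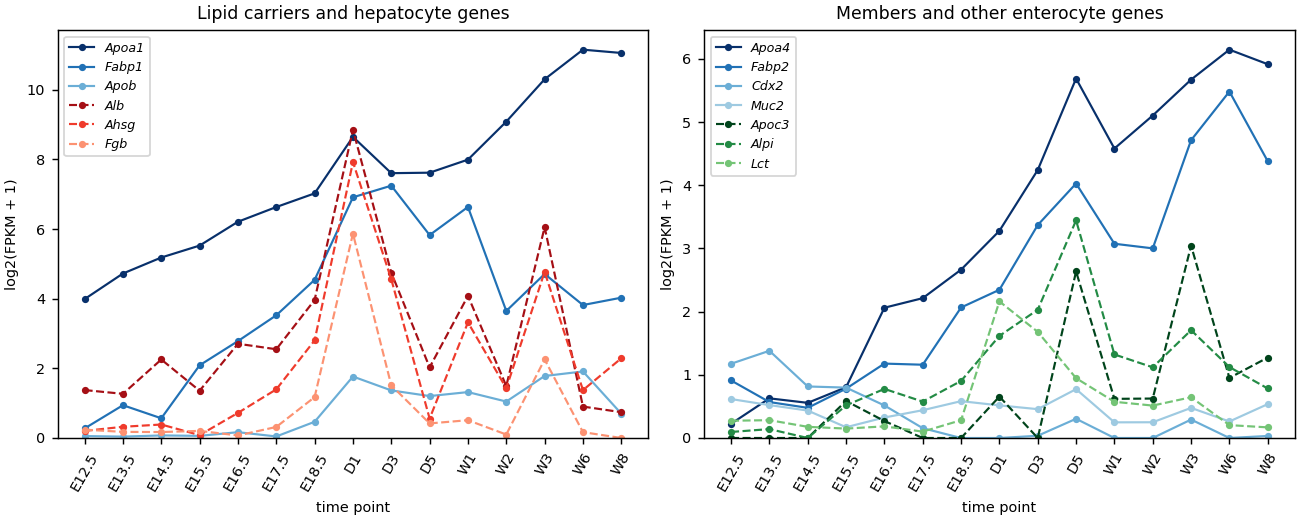
Levels as log2(FPKM + 1) (vertical axes) over the 15 time points (horizontal axes), with solid lines for genes of the set and dashed lines for hepatocyte genes (left) and other enterocyte genes (right). Alb, Ahsg and Fgb peak at D1 and again at W3, whereas Apoa1 is highest at W6 and W8, and Alpi and Apoc3 stand out at D5 together with Apoa4.

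Epithelial markers did not move as 1 group. The summed FPKM of 8 of them was 585 at E12.5 and 5692 at W6, mostly from the keratin genes Krt8, Krt18 and Krt19. Cdh1 stood at 25.2 and 132 FPKM in the same libraries, Epcam at 85.5 and 75.5, Cldn7 at 44.4 and 4.64, Cldn4 at 24.1 and 3.47 and Cldn3 at 23.7 and 0.53. In Ph2, 2 of the 8 were called higher and 2 lower, against 13.2% and 35.1% of all tested symbols. In Ph3, 0 were called higher and 2 lower, against 3.41% and 37.4%. Scaling to Cdh1 is therefore 1 choice among epithelial references. Set against Cdh1, the lowest and the highest library differed by 2.91-fold for Vil1, 29.7-fold for Apoa1, 49.2-fold for Fabp2, 78.9-fold for Apoa4 and 83.0-fold for Apob. About 5 fragments stood behind the lowest value of Fabp2 and behind that of Apoa4, and about 6.2 behind that of Apob. Fabp1, which rested on about 1 fragment at E12.5, went from 9.73 FPKM per 100 FPKM of Cdh1 at E17.5 to 130.4 at D3 and 7.22 at W2. With libraries scaled to the same Cdh1 FPKM, all 6 enterocyte genes kept the call from Ph1 to Ph2, with Vil1 at 0.80 (adjusted p = 0.00753). This scaling shifted the median of all symbols to -0.97, with 3.79% of them called higher and 45.4% lower. Cdx2 and Pdx1 kept their calls, at -1.17 (adjusted p = 0.00689) and -1.295 (adjusted p = 0.00337), close to that shift. From Ph2 to Ph3 only Apoa1 kept its call (2.60, adjusted p = 0.00068), where 0.396% of all symbols were called higher.

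**Figure D4:**
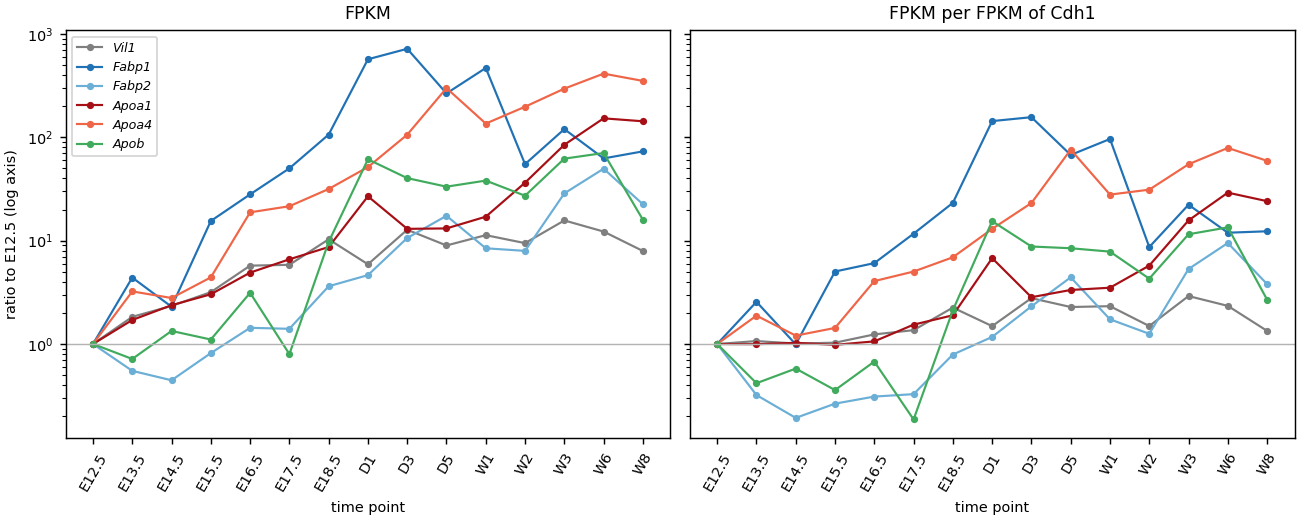
Ratio to E12.5 (vertical axis, logarithmic) of the 6 enterocyte genes over the 15 time points (horizontal axes), as FPKM (left) and as FPKM per FPKM of Cdh1 (right). The first point of Fabp1 rests on about 1 fragment, which sets the height of its whole curve. Relative to Cdh1, Vil1 stays within 2.91-fold, Fabp1 peaks at D3 and falls back by W2, and Apoa1 climbs to W6.

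Other genes known from the intestine, 80 in 4 lists, were read as well, of which 62 reached 1 FPKM. Some were abundant in these stomach libraries, such as Agr2 at up to 998 FPKM and Elf3 at up to 220. Whether their changes were those of stomach cells or of cells of intestinal type was not tested. From Ph1 to Ph2, 25 of the 62 (40.3%) were higher, against 13.2% of all symbols, and 0 were lower in limma, with a median difference of 0.73 against -0.22 for all symbols, and at an adjusted p under 0.05, 2 were lower. From Ph2 to Ph3, 7 were higher (11.3%) and 4 lower (6.45%), with a median of -0.10, against 3.41% higher, 37.4% lower and a median of -0.43 over all symbols. With scaling to Cdh1 the 25 became 11 (17.7%), against 3.79% of all symbols. Of the disaccharidases that define the enterocyte, the sucrase-isomaltase gene Sis was listed at 0 in 14 of 15 libraries and at 0.02 FPKM in the other, and Lct, the lactase gene, reached 3.47 FPKM at D1 and at most 2.20 elsewhere.

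Of 14 other intestinal regulators tested, 6 were higher in Ph2 and 0 lower, against 13.2% and 35.1% of all tested symbols. The largest rises were those of Creb3l3, a lipid-responsive factor of liver and gut (1.89, adjusted p = 0.00047), Spdef, a factor of secretory cells (1.15, adjusted p = 0.0043), and Hnf4a, the nuclear receptor that drives many enterocyte genes (1.14, adjusted p = 0.000265). Hnf4a went from 6.47 FPKM at E12.5 to 31.0 at W3 and was not listed below 15.6 after E17.5. In Ph3, Gata4 was higher (0.78, adjusted p = 0.00242) and Klf5 lower (-1.31, adjusted p = 0.00294). Isx, a homeobox gene that depends on CDX2 in the intestine, stood at 0.91 to 1.25 FPKM from E12.5 to E14.5 and at 0.035 at E17.5, and it reached 1.13 again at D1.

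Of 19 genes of the brush border, digestion and transport, 10 were higher in Ph2 and 0 lower. Of all tested symbols, 13.2% were higher and 35.1% lower. Krt20, a keratin of mature gut epithelium (3.71, adjusted p = 7.72e-05), Gpa33, a membrane glycoprotein of gut epithelium (2.81, adjusted p = 9.56e-05), and Myo1a, the brush border myosin (1.93, adjusted p = 0.00134), rose most. In Ph3, Cdhr5, a cadherin that links microvilli (1.13, adjusted p = 0.000426), and Slc2a5, the fructose transporter gene (1.01, adjusted p = 0.00489), were higher, and Enpep, which encodes a glutamyl aminopeptidase, was lower (-1.85, adjusted p = 7.22e-05).

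Of 18 genes of lipid absorption and lipoproteins, 5 were higher in Ph2: Rbp2, the cellular retinol binding protein gene of enterocytes (3.23, adjusted p = 0.00384), Dgat2, which encodes an enzyme of triglyceride synthesis (2.44, adjusted p = 0.00134), Apobec1, whose product edits Apob RNA (1.14, adjusted p = 0.000594), the fatty acid uptake gene Cd36 (1.04, adjusted p = 0.0026) and Mttp (0.92, adjusted p = 0.00969). Among all tested symbols, 13.2% were higher in Ph2. Mttp encodes the transfer protein that loads lipid onto APOB. It stood between 3.39 and 7.55 FPKM from E18.5 to W1 and between 0.41 and 0.72 from W2 on, and it was lower in Ph3 (-1.62, adjusted p = 0.00126), as was Plin2, the gene of a lipid droplet protein (-1.71, adjusted p = 0.000127). Apoa1 and Apoa4 were highest at W6, where Mttp was lowest. Dgat1 was higher in Ph3 (0.78, adjusted p = 0.000407).

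Of 11 goblet and Paneth cell genes, 4 were higher in Ph2 and 0 lower: Agr2, which encodes an endoplasmic reticulum protein needed for mucin folding (2.86, adjusted p = 0.000125), the membrane mucin gene Muc13 (2.09, adjusted p = 0.00317), and the guanylin genes Guca2b (1.11, adjusted p = 0.00011) and Guca2a (0.87, adjusted p = 0.00457). Among all tested symbols, 13.2% were higher in Ph2 and 35.1% lower. In Ph3, Zg16, a lectin of the mucus layer (5.26, adjusted p = 1.81e-06), Fcgbp, a mucus protein (3.04, adjusted p = 0.00134), and Lyz1, a lysozyme (1.14, adjusted p = 0.000416), were higher. Muc2 itself stayed under 1 FPKM, and the 3 other mucin genes of its cluster on chromosome 7 did not. Muc5ac, the mucin of the gastric surface, rose by 6.15 on the log2 scale from Ph2 to Ph3 (adjusted p = 8.52e-05). Muc6, the mucin of gastric glands, rose in both steps (2.84, adjusted p = 0.000619, and 2.74, adjusted p = 0.00359). Muc5b, a gel-forming mucin gene best known from the airways, rose by 5.52 in Ph2 (adjusted p = 8.75e-05) and fell by 5.88 in Ph3 (adjusted p = 0.000254), with 99.8 to 332 FPKM from E18.5 to W1 and 0.58 at W8.

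**Figure D5:**
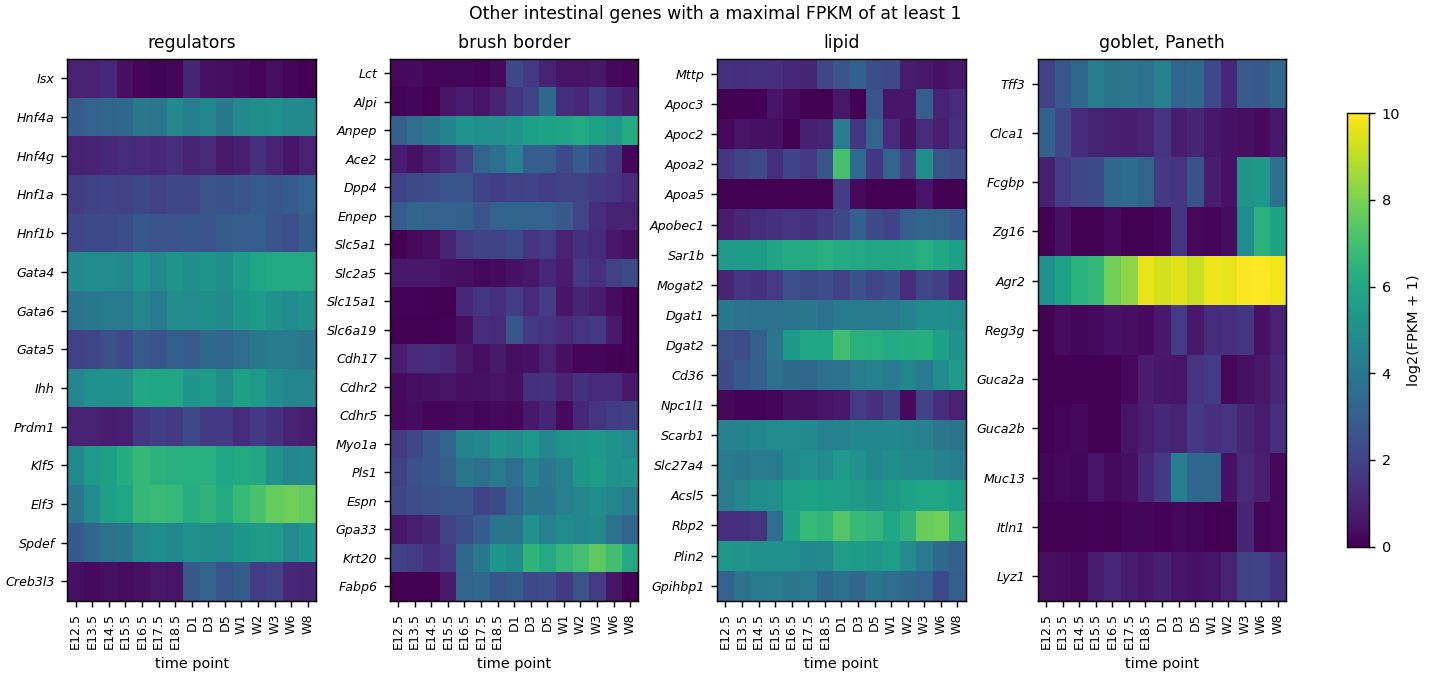
Levels as log2(FPKM + 1) (colour, from 0 to 10) of the 62 tested genes of the 4 intestinal lists (rows) in the 15 libraries (columns), 1 panel per list. Genes such as Krt20, Rbp2 and Agr2 brighten around birth, and Zg16 appears at W3. Cdh17 and Isx are brightest at E14.5, with Isx nearly as bright at D1.

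Genes of the stomach itself were read over the same steps. Of 17 genes of gastric identity, 13 were higher in Ph2 and 1, Sox2, was lower (-0.83, adjusted p = 0.00351). The shares of all tested symbols were 13.2% higher and 35.1% lower. The largest rises were those of the gastrokine genes Gkn2 (5.51, adjusted p = 6.35e-05) and Gkn1 (5.39, adjusted p = 6.94e-05) and of the ghrelin gene Ghrl (5.30, adjusted p = 6.93e-05). In Ph3, 4 were higher, with Muc5ac, Gkn1 (3.54, adjusted p = 0.00278) and Gkn2 (3.48, adjusted p = 0.00272) first, and Sox2 (-1.73, adjusted p = 0.000191) and Barx1 (-1.69, adjusted p = 0.00177) were lower. Among all tested symbols, 3.41% were higher in Ph3 and 37.4% lower. Sox2 still stood at 52.5 FPKM at E17.5, where Cdx2 was down to 0.11, and reached 5.34 at W8.

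For each of the 8 tested genes, the symbols with the most similar course over the 15 time points were listed by Pearson's r of log2(FPKM + 1), as a description only, since all points share the same libraries. Cdx2 was nearest to Mpped1 (r = 0.97) and to Nkx2-5 (r = 0.96), a homeobox gene that also marks the pyloric sphincter of the embryo. Pdx1 was nearest to Nkx6-3 (r = 0.95), a homeobox gene of the antrum, and its next neighbour, Azin1, reached only 0.84. Fabp2 was nearest to Gkn1 and Gkn2 (r = 0.97 for both), and Apoa4 had Ghrl among its first 3 (r = 0.98). Fabp1 was nearest to Proc, which encodes the clotting regulator protein C of the liver (r = 0.97), followed by Pxmp4 and Lpcat3 (r = 0.96 for both). Proc, Pxmp4 and Lpcat3 were each highest at W1. Vil1 was nearest to Cmbl and Pfkp (r = 0.98 for both), Apoa1 to Tmed6 (r = 0.99) and Apob to Tgtp2 (r = 0.96). Among the members themselves, Fabp2 and Apoa4 (r = 0.96) and Apoa1 and Apoa4 (r = 0.92) were closest, whereas Fabp1 and Apoa1 gave 0.59.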

How the data were processed

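RNA-seq of whole mouse stomach was analysed in 15 libraries, 1 per time point. The values deposited by the authors are FPKM, 1 per gene entry, with confidence bounds. The study's methods name HISAT2, StringTie and a GENCODE annotation on GRCm38.p2, the processing notes of the submitters name Bowtie 0.12.2 and FastQC, and the tables are laid out as those of Cufflinks and carry identifiers in RefSeq style. No column of per-sample values was left unused. Entries that share a symbol were added up, and 1 was added to start positions, which count from 0. Fragments were estimated from the bounds, which lie 2 square roots of the fragments from the value if they are Poisson. They were whole within 0.05 for 37.9% to 42.6% of low entries, so they are estimates.

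Symbols whose highest FPKM was 1 or more were tested on log2(FPKM + 1) with limma 3.58.1 in R 4.3.3, with 1 spread shared by the 3 phases and Benjamini-Hochberg adjustment at 0.01, as a counterpart of the study's analysis of variance over phases; the script was tested on simulated data. Single genes were also compared by exact two-sided permutation tests (SciPy 1.17.1). The members and lists were chosen with earlier results of these data known. Named are all members, every called gene of a list with 5 or fewer calls in a comparison and otherwise the 3 largest in each direction, the 3 symbols most similar to a member (some not printed), and marker genes for a check; genes given with levels alone (Isx, Sis, Lct, Alpi, Apoc3, Apoa5, Hnf4a, Gsx1) were chosen after their values were seen. Alternatives were other pseudocounts, filters, scalings, phase borders and thresholds, and each library left out; leaving out D1 and W3, leaving out D5 and W3, and scaling to Cdh1 were chosen after seeing the data. Sequences are those of RefSeq.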

Additional observations from a re-analysis of the deposited data

Results flagged for a closer look

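In 3 of 20 groups of 6 libraries tested, the highest library lay far from the other 5 by Dixon's test. That test flags about 1 in 20 groups of independent normal values. Successive time points with few fragments are not such values, so the rates cannot be compared. Cdx1 stood at 0.401 FPKM at E15.5, and the next highest of Ph1 was 0.148. E15.5 also held 39.3 FPKM of the pancreatic gene Ctrb1, against at most 3.47 in the other libraries of Ph1.

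Cdx2 stood at 0.235 FPKM at D5, and the next highest of Ph2 was 0.0248. The same library held 5.21 FPKM of Apoc3 and 9.88 of Alpi, both genes of enterocytes, and Apoc3 also of hepatocytes.

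Apob stood at 0.123 FPKM at E16.5, and the next highest of Ph1 was 0.0524. About 22.4 fragments lay behind that value, against 6.2 to 11.1 in the other libraries of Ph1. The part of other organs' RNA in these values was not tested.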

How the results depend on the processing

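The rises of Fabp1, Fabp2, Apoa1, Apoa4 and Apob into Ph2 and of Apoa1 into Ph3 kept their calls under all 30 alternatives. The number of members lower in Ph2 was 2, and it was 1 with a filter at 2 FPKM, median-ratio scaling, a fixed sum without the 10 highest symbols, E17.5 in Ph2, or D5 and W3 left out, 0 with E18.5 in Ph1, and 1 to 2 with single libraries left out. The share of all symbols lower in Ph2 was 35.1%, and 37.9% with the filter at 2 FPKM, 18.7% with median-ratio scaling and 25.7% with the fixed sum. It was 35.7% with E17.5 in Ph2, 33.9% with D5 and W3 left out and 30.6% with E18.5 in Ph1. The loss of Cdx2 fell short only with E18.5 in Ph1 (adjusted p = 0.0179). Scaling to Cdh1 left 1 member higher in Ph3 instead of 3, against 0.396% of all symbols instead of 3.41%. Vil1 between Ph3 and Ph2 turned to -0.0812 on the log2 scale with D1 and W3 left out, and Cdx2 to -0.0517. With single libraries left out Cdx2 ranged from -0.0404 (without W3) to 0.1055. None of these was called.

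Of the other intestinal genes, 25 were higher in Ph2, and 11 with scaling to Cdh1 (3.79% of all symbols, from 13.2%). 0 were lower, but 2 without a filter on low values, with E17.5 in Ph2 or at a threshold of 0.05, 3 with scaling to Cdh1, and 0 to 2 with single libraries left out (2 without E17.5). Of all symbols, 35.1% were lower in Ph2, 20.5% without the filter and 35.7% with E17.5 in Ph2. The share was 44.2% at 0.05, 45.4% with scaling to Cdh1 and 38.1% without E17.5. In Ph3, 7 were higher, but 12 with median-ratio scaling and 11 with quantile normalization or at 0.05. With scaling to Cdh1 there were 2, and without W6 there were 4. The share of all symbols higher in Ph3 was 3.41%, but 15.3% with median-ratio scaling, 10.2% with quantile normalization and 5.85% at 0.05. It was 0.396% with scaling to Cdh1 and 1.78% without W6. In Ph3, 4 were lower, but 2 with quantile normalization, 11 with E17.5 in Ph2 and 12 at 0.05. With scaling to Cdh1 there was 1, and without W3 there were 7. The share of all symbols lower in Ph3 was 37.4%, but 7.7% with quantile normalization, 42.7% with E17.5 in Ph2 and 52.2% at 0.05. It was 0.84% with scaling to Cdh1 and 36.4% without W3. The cause was not tested. No paired analysis was possible because each time point has 1 library and the labels carry no replicate numbers. Depth limits Cdx1, Cdx2 and Muc2, which rest on at most 68.7 fragments in any library.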

Other observations

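The libraries D5 and W3 were also compared with their neighbours in time over the 62 other intestinal genes. At W3, 26 of the 62 (41.9%) stood above both W2 and W6, against 19.5% of all tested symbols, and at D5, 18 (29.0%) stood above both D3 and W1, against 44.7% of all. These counts hold no size of difference, and whether either library held tissue beyond stomach was not tested.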
